A study of Homo sapiens with 10 samples.

Results

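Transcript levels of 34 genes of glycolysis, lactate handling and the pentose phosphate pathway were measured in human embryonic stem cells and in 4 cell types made from them. The genes were chosen by name for their place in the pathway, with no threshold on their values but with earlier results of these data known, and all 34 were found among the 22848 gene symbols that the 4 deposited tables share. The derivatives were labelled DE for definitive endoderm, MESO for splanchnic mesoderm, NPC for neural progenitors and NCSC for cells before the neural crest stage, and the control was the undifferentiated line (hESC). All came from WA09, an established line of embryonic stem cells, so every value describes 1 cell line. Poly-A RNA was sequenced from 2 libraries per cell type, and nothing in the labels tells if those were separate cultures.

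DE was collected at day 4. Its medium held activin A at 100 and FGF at 8 ng/mL; Wnt-3a at 25 ng/mL was present only on day 1, and IGF-I and heregulin were absent. MESO was collected at day 4 in FGF at 8, IGF-I at 200, activin A at 10 and heregulin at 10 ng/mL, to which Wnt-3a at 25 and BMP-4 at 100 ng/mL had been added. NPC was collected at day 6 in IGF-I at 200 and heregulin at 10 ng/mL with the inhibitors SB431542 and LDN (500 nM), and without FGF or activin A. NCSC was collected at day 6 in FGF at 8, IGF-I at 200 and heregulin at 10 ng/mL with the inhibitors SB431542 and BIO, and without activin A. hESC was collected at day 4 in FGF at 8, IGF-I at 200, activin A at 10 and heregulin at 10 ng/mL. NPC and NCSC were seeded at 90000 cells/cm2, and DE, MESO and hESC at 50000 cells/cm2, so the lineage, the factors, the day and the density of NPC and NCSC cannot be told apart.

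Glycolysis takes glucose to pyruvate. Glucose enters through the GLUT carriers, is trapped by hexokinase, passes the committed step at phosphofructokinase, is split by aldolase and is oxidised to pyruvate in the lower part of the pathway. Lactate dehydrogenase exchanges pyruvate and lactate, and the monocarboxylate carriers move lactate across the membrane. The pentose phosphate pathway leaves glycolysis at glucose 6-phosphate and makes NADPH and ribose 5-phosphate, while PGM1 and UGP2 lead towards glycogen and nucleotide sugars. Pluripotent cells are known for a high rate of glycolysis, and many of these genes are textbook targets of the hypoxia-inducible factors (HIF) and of MYC.

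RefSeq promoter windows on GRCh38.p14 are shown for the changed members that have 1 listed start site, PFKFB4, PGK1, ALDOC and LDHB, and for SLC2A1. They are shown because HIF is known to bind this short core in promoters of the pathway. Each is the 250 bases upstream of the start, on the gene's strand, 5′ to 3′, and capitals mark every ACGTG or GCGTG on either strand. An E-box, CACGTG, holds ACGTG on both strands and so counts as 2 matches. The windows lie at chr3:48556804-48557053 on the minus strand for PFKFB4, chrX:78103998-78104247 on the plus strand for PGK1, chr1:42958869-42959118 on the minus strand for SLC2A1, chr17:28576896-28577145 on the minus strand for ALDOC and chr12:21657843-21658092 on the minus strand for LDHB.
PFKFB4: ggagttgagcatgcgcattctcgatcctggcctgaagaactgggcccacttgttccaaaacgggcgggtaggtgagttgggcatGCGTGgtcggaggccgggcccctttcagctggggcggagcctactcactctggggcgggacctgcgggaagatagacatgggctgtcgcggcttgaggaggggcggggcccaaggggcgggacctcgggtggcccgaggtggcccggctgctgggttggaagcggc
PGK1: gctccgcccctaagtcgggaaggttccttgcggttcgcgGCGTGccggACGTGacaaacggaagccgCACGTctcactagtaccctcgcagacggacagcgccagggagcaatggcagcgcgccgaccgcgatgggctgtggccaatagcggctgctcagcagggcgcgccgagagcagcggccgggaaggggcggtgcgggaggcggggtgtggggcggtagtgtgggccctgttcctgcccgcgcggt
SLC2A1: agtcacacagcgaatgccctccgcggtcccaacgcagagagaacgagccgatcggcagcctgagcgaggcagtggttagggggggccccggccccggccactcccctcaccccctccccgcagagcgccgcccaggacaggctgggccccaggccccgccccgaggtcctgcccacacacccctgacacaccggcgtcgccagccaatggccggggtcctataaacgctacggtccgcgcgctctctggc
ALDOC: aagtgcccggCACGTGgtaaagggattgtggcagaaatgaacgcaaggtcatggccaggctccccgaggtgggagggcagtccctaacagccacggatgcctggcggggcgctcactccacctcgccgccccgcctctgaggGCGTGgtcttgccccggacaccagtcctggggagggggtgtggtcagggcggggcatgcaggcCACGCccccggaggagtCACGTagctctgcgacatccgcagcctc
LDHB: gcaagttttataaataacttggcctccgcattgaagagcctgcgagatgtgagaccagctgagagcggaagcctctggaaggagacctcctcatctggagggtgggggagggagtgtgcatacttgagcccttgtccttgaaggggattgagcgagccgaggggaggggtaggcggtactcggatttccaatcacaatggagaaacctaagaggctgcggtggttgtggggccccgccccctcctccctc

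The ALDOC window held 5 matches, 2 of them in an E-box, the PGK1 window 3, the PFKFB4 window 1, and the SLC2A1 and LDHB windows 0. Among the 18 members with a single start site, 10 held a match and 2 an E-box. Of all 35116 RefSeq windows of the same length, 43.2% held a match, 7.76% held 3 or more and 6.34% held an E-box. The letters describe the windows and are not binding sites. Whether the matches bear on the members' levels was not tested.

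Each deposited table gives, per locus, 1 FPKM value (fragments scaled by transcript length and by the fragments mapped) for the derivative and 1 for hESC, into which the authors had combined the 2 libraries, together with a signed test statistic and its p- and q-values, all computed by the authors. No spread between libraries can be computed from them and the depth is unknown. A gene is said to have risen or fallen where the authors' q-value was below 0.05, and changes are differences of log2(FPKM + 1), derivative minus hESC of the same table, which understates the change of low genes. In bulk RNA, fewer cells that express a gene and less RNA per cell cannot be told apart. The hESC levels of the 4 tables lay close together: among the 32 members that were never merged with another gene, the highest of the 4 was within 1.2 times the lowest for 16 and within 1.3 times for 27. The 5 remaining genes included PGM1, at 108 FPKM in the hESC column of the DE table and 64.9 to 71.2 FPKM in the other 3, and HK2, at 17.6 to 26.5 FPKM.

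The cultures were checked against marker lists. Summed over 7 pluripotency genes, FPKM was 1027 in DE against 2487 in hESC, 304 in MESO against 2485 in hESC, 806 in NPC against 2828 in hESC and 551 in NCSC against 2639 in hESC. By the authors' q-values 0 of these 7 genes fell in DE, 7 in MESO, 5 in NPC and 4 in NCSC. Few loci were called in DE, and 0 of the 7 were above hESC there. Of all tested loci 0.406% rose and 0.0203% fell in DE, 9.05% and 5.36% in MESO, 11.9% and 24.8% in NPC, and 10.2% and 19.7% in NCSC. SOX2 rose in NPC, to 418 FPKM against 260 in hESC, and so made up much of the NPC sum. The lists of the derivatives' own lineages had 5 of 7 genes higher in DE, 8 of 8 in MESO and 6 of 7 in NPC. The neural crest list did not single out NCSC: 3 of 10 genes rose there, 2 fell and FOXD3 was at 0. The sum was 52.9 FPKM in NCSC against 43.3 FPKM in hESC. Of the same list 4 of 10 genes rose and 1 fell in MESO, where the sum was 183 FPKM against 40.1 FPKM in hESC. In NPC 4 of 10 rose and 1 fell, with a sum of 32.0 FPKM against 46.2 FPKM in hESC. MESO also had 6 of 7 trophoblast and amnion markers higher, with a sum of 510 FPKM against 19.8 FPKM in hESC. Fibroblast markers summed to 1265 FPKM in MESO against 115 FPKM in hESC (4 of 5 higher) and to 745 FPKM in NCSC against 113 FPKM in hESC (3 of 5 higher). The part of these other cell types in the results on MESO and NCSC was not tested.

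For 9 of the 34 genes the deposited FPKM and the deposited statistic disagreed, and these were kept out of every count and median below. They are SLC2A1, HK1, GPI, PKM, PKLR, LDHA, TALDO1, TKT and UGP2. Over the 4 tables, 13 of 62745 loci with both values had an FPKM ratio and a statistic of opposite sign, and 12 of the 13 were loci of 8 of these members. Likewise 13 FPKM cells carried more than 6 significant digits, and 11 of them belonged to members: PKM, PKLR, LDHA, TALDO1, TKT and UGP2 in NPC, LDHA, TALDO1, TKT and UGP2 in NCSC, and UGP2 in MESO, in each case the value of the derivative. Those 11 values are given below as listed. HK1 was set apart by its low quotient of log2 ratio over statistic alone, a rule that was chosen after the data were seen. In the 25 other genes that quotient stayed within 0.47 to 0.91 in DE, 0.54 to 1.34 in MESO, 0.38 to 0.62 in NPC and 0.38 to 0.81 in NCSC. How the 9 came to differ was not tested. Among the 25, the spans listed for SLC16A1, PFKL, PFKM, TPI1, PFKFB3, PGK1, ENO1 and RPE in every table, for PFKP in MESO and NPC and for SLC16A3 in MESO are shared with other genes or antisense or small RNAs that have values of their own; how reads in an overlap were assigned is not given in the sources used here.

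**Figure D1:**
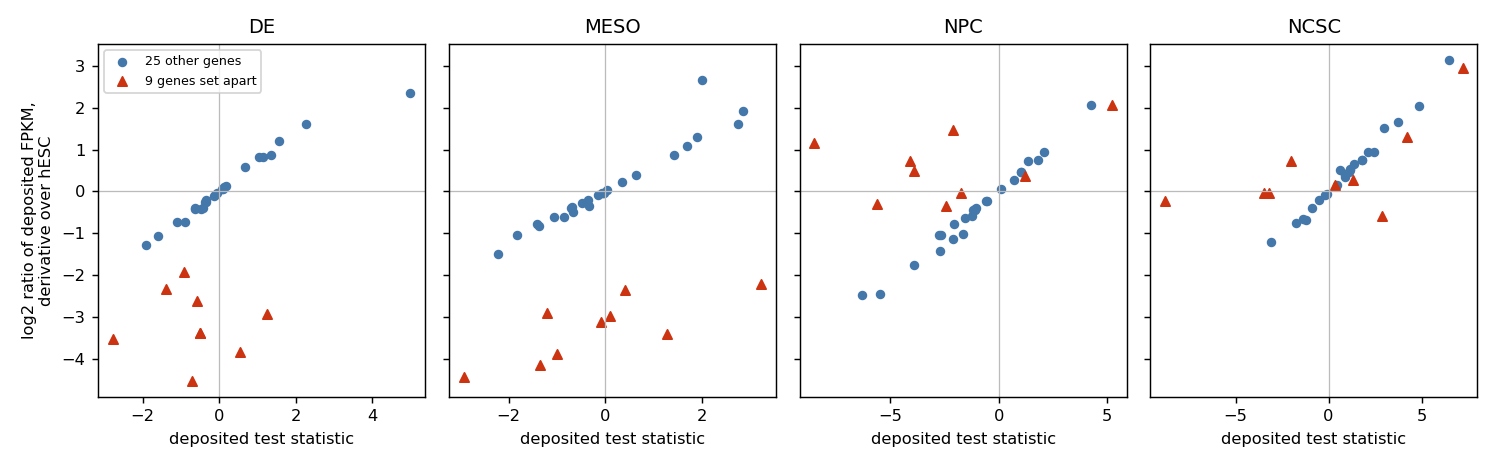
Log2 ratio of the deposited FPKM, derivative over hESC (vertical axis), against the deposited test statistic (horizontal axis) for 34 genes in each of 4 tables. The 25 genes that were counted lie on a rising line, whereas the 9 set apart (triangles) lie below it in DE and MESO, and on it or to either side of it in NPC and NCSC.

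Calls among the 25 genes are given with the share of all loci called. In DE 0 rose and 0 fell by the authors' deposited q-values, where 0.406% of all 14789 tested loci rose and 0.0203% fell; 2 genes, SLC2A3 and SLC16A3, had an unadjusted p-value below 0.05 in the authors' deposited table. In MESO 2 of 25 rose (8%, beside 9.05% of 14796 loci) and 1 fell (4%, beside 5.36%). In NPC 3 of 25 rose (12%, beside 11.9% of 14863 loci) and 8 fell (32%, beside 24.8%). In NCSC 8 of 25 rose (32%, beside 10.2% of 14901 loci) and 2 fell (8%, beside 19.7%). The shares in MESO and the higher share in NPC were near the background; NCSC had a higher share of rising genes, and a lower share of falling genes, than all loci. The size of the falling share depends on the genes set apart. With all 34 genes in the direction of the statistic, 14 of 34 fell in NPC, a higher share than the 24.8% of all loci. In NCSC 5 of 34 fell, still a lower share than the 19.7% of all loci. With only the loci of opposite sign left out, 11 fell in NPC and 5 in NCSC.

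The median change of the 25 genes was -0.08 in DE, -0.08 in MESO, -0.44 in NPC and 0.45 in NCSC, where the median over all loci with at least 1 FPKM was 0.05, 0.07, -0.27 and -0.23 in the same order. With all 34 genes the medians were -0.30 in DE, -0.39 in MESO, -0.27 in NPC and 0.40 in NCSC, so the DE and MESO medians of the 25 depend on leaving out the 9, by rules of which 1 was chosen after the data were seen. Relative to all loci the medians of the 25 were -0.13, -0.16, -0.17 and 0.68. In NCSC 17 of the 25 were above hESC and 8 below, while 38.9% of all loci were above. In NPC 8 were above and 17 below, with 38.2% of all loci above. The 4 comparisons share the hESC libraries, so their directions are not independent. With a normal p-value taken from the deposited statistic in place of the authors' p-value, 1 gene (SLC2A3) rose in DE, 0 rose and 0 fell in MESO, 1 rose and 6 fell in NPC, and 4 rose and 1 fell in NCSC. The genes still called were PFKFB4 in NPC and SLC2A3, SLC16A3, PFKFB4 and ENO3 in NCSC upward, and SLC16A1, ALDOC, TPI1, PFKFB2, LDHB and PGM1 in NPC and SLC16A1 in NCSC downward. The share of all loci called in this way is not given here.

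**Figure D2:**
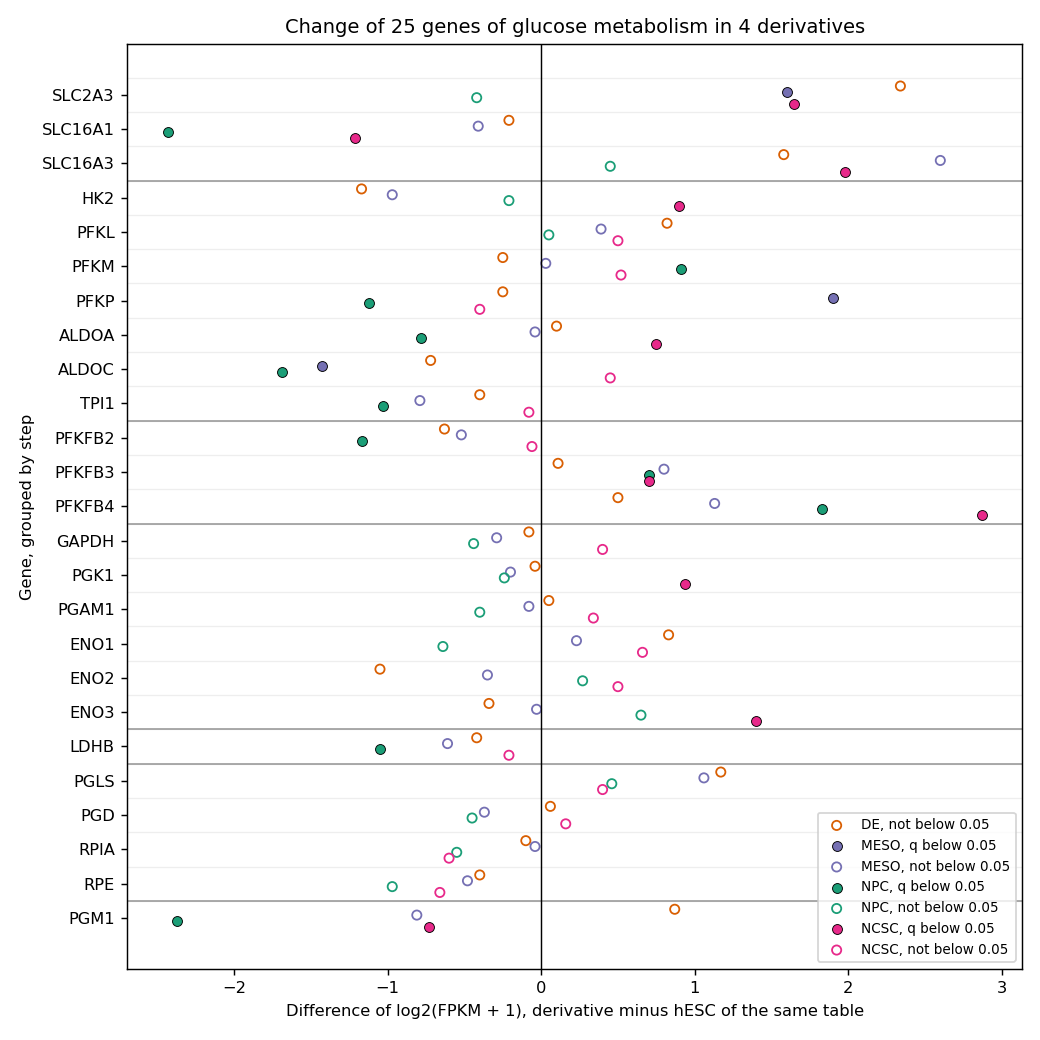
Difference of log2(FPKM + 1), derivative minus hESC of the same table, for 25 genes grouped by step of the pathway; filled circles mark a deposited q-value below 0.05. PFKFB4 and SLC16A3 lie right of 0 in all 4 derivatives, SLC16A1 and LDHB left of 0, and most filled NCSC circles lie right of 0.

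The carriers gave some of the largest changes. SLC2A3, at chr12:8071225-8088892 (hg19, NCSC table), encodes GLUT3, a high-affinity glucose carrier. Its level was 1265 FPKM in DE against 249 in hESC, 553 FPKM in MESO against 182 in hESC, 157 FPKM in NPC against 210 in hESC and 614 FPKM in NCSC against 195 in hESC. It rose in MESO (log2 change 1.60) and NCSC (1.65). In DE the change was larger, 2.34, with a q-value of 0.0595 in the authors' deposited table. SLC2A14, a close copy of SLC2A3, was at 199 FPKM in MESO against 76.9 in hESC and at 221 FPKM in NCSC against 84.2 in hESC. How reads shared by this pair were assigned is not given in the sources used here, so the level of each is uncertain.

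SLC2A1 encodes GLUT1, the basal glucose carrier of many cells. It was at 194 FPKM in NPC against 46.6 in hESC and at 335 FPKM in NCSC against 43.7 in hESC. In these tables its ratio and statistic had the same sign (5.20 in NPC and 7.21 in NCSC), with q-values of 0.000323 and 0.000455 in the authors' deposited table. The changes were 2.03 in NPC and 2.91 in NCSC. In DE it was listed at 8.48 FPKM against 32.0 in hESC with a statistic of -0.92, and in MESO at 8.92 FPKM against 41.5 in hESC with a statistic of 3.21, so no direction is given in MESO. Because of that row the gene is outside the counts.

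SLC16A1 and SLC16A3 encode the monocarboxylate carriers MCT1 and MCT4; MCT4 is known for lactate export from glycolytic cells. SLC16A1 was at 139 FPKM in DE against 161 in hESC, 128 FPKM in MESO against 170 in hESC, 36.8 FPKM in NPC against 203 in hESC and 81.0 FPKM in NCSC against 189 in hESC. It fell in NPC by 2.43 and in NCSC by 1.21 on the log2 scale. Several loci carry its symbol, and taking the first in place of the highest ended the calls in NPC and NCSC.

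SLC16A3 was above hESC in every derivative: 63.9 FPKM in DE against 20.8 in hESC, 114 FPKM in MESO against 17.9 in hESC, 28.9 FPKM in NPC against 20.9 in hESC and 80.5 FPKM in NCSC against 19.7 in hESC. It rose in NCSC (1.98). The change of 2.60 in MESO did not pass, with a q-value of 0.178 in the authors' deposited table, and the locus there also spans CSNK1D. Of the summed FPKM of the pair, SLC16A3 made up 31.5% in DE against 11.4% in hESC, 47.1% in MESO against 9.55% in hESC, 44.0% in NPC against 9.32% in hESC and 49.8% in NCSC against 9.43% in hESC. In NPC that share went with a lower sum, 65.7 FPKM in NPC against 224 FPKM in hESC. These shares carry no test.

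Hexokinase phosphorylates glucose. HK2, the form that is induced in many growing cells, was at 37.4 FPKM in NCSC against 19.5 in hESC, and it rose there (0.90). It was lower and did not pass in DE (7.28 FPKM against 17.6 in hESC), MESO (9.14 FPKM against 18.9 in hESC) and NPC (22.7 FPKM against 26.5 in hESC). In MESO its q-value in the authors' deposited table was 0.0542. HK1, the housekeeping form, is among the 9 set apart. It was listed at 20.4 FPKM in DE against 103 in hESC, 10.8 FPKM in MESO against 94.6 in hESC, 86.2 FPKM in NPC against 106 in hESC and 95.4 FPKM in NCSC against 98.5 in hESC. In MESO that ratio stood beside a statistic of -0.10, and in NCSC a ratio near 1 stood beside a statistic of -3.20. GPI, which turns glucose 6-phosphate into fructose 6-phosphate, was also set apart. It was listed at 11.9 FPKM in DE against 73.1 in hESC, 5.04 FPKM in MESO against 74.7 in hESC, 67.7 FPKM in NPC against 69.2 in hESC and 42.6 FPKM in NCSC against 64.8 in hESC, and its NCSC statistic, 2.85, pointed the other way.

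The phosphofructokinase subunits, which catalyse the committed step, changed in different directions. PFKP, the platelet-type subunit, was at 184 FPKM in MESO against 48.8 in hESC, 23.9 FPKM in NPC against 53.2 in hESC, 40.5 FPKM in DE against 48.5 in hESC and 38.4 FPKM in NCSC against 51.0 in hESC. It rose in MESO (1.90) and fell in NPC by 1.12. In both of these tables its span is shared with PITRM1. PFKM, the muscle-type subunit, was at 60.1 FPKM in NPC against 31.6 in hESC and rose there (0.91). It was at 29.6 FPKM in DE against 35.4 in hESC, 29.9 FPKM in MESO against 29.3 in hESC and 42.1 FPKM in NCSC against 29.0 in hESC, none of which passed. Its span in every table is shared with SENP1 and ASB8, which have values of their own. PFKL, the liver-type subunit, passed nowhere and was between 37.2 FPKM (NPC) and 69.3 FPKM (DE), against at most 38.9 FPKM in hESC.

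As shares of the subunits' summed FPKM, PFKP made up 71.0% in MESO against 43.4% in hESC and 19.7% in NPC against 44.1% in hESC. PFKM made up 49.6% in NPC against 26.2% in hESC. The sum itself was 121 FPKM in NPC and 121 FPKM in hESC, and 260 FPKM in MESO against 112 FPKM in hESC. The leading subunit was PFKM in NPC, PFKP in MESO and hESC, and PFKL in DE (49.7% against 31.7% in hESC) and NCSC (37.6% against 29.8% in hESC). FPKM is scaled by length, so these shares compare transcripts and not protein.

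The 6-phosphofructo-2-kinase/fructose-2,6-bisphosphatase genes set the level of fructose 2,6-bisphosphate, the main activator of phosphofructokinase. PFKFB4, at chr3:48551799-48595262 (hg19, as in the NCSC table), had the largest rise among the 25 genes in both NPC and NCSC. It was at 7.35 FPKM in DE against 4.91 in hESC, 10.3 FPKM in MESO against 4.17 in hESC, 17.8 FPKM in NPC against 4.28 in hESC and 37.1 FPKM in NCSC against 4.21 in hESC. The change was 1.83 in NPC and 2.87 in NCSC. In MESO it was 1.13, with a q-value of 0.0519 in the authors' deposited table, and in DE 0.50. The 4 hESC values lie between 4.17 and 4.91, below all 4 derivatives.

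PFKFB3, whose product has a high kinase activity, rose by 0.70 both in NPC (16.5 FPKM against 9.77 in hESC) and in NCSC (15.3 FPKM against 9.03 in hESC). In MESO it was at a like level, 15.8 FPKM against 8.65 in hESC, without passing, and in DE at 8.78 FPKM against 8.03 in hESC. PFKFB2, the heart-type gene, went the other way: it was at 2.90 FPKM in NPC against 7.77 in hESC and fell there by 1.17. Elsewhere it was at 5.09 FPKM in DE against 8.45 in hESC, 4.53 FPKM in MESO against 6.92 in hESC and 7.95 FPKM in NCSC against 8.33 in hESC. Within the summed FPKM of the 3 genes, PFKFB4 made up 47.8% in NPC against 19.6% in hESC and 61.5% in NCSC against 19.5% in hESC, and PFKFB2 7.79% in NPC against 35.6% in hESC. The sum was 37.3 FPKM in NPC against 21.8 FPKM in hESC and 60.4 FPKM in NCSC against 21.6 FPKM in hESC.

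**Figure D3:**
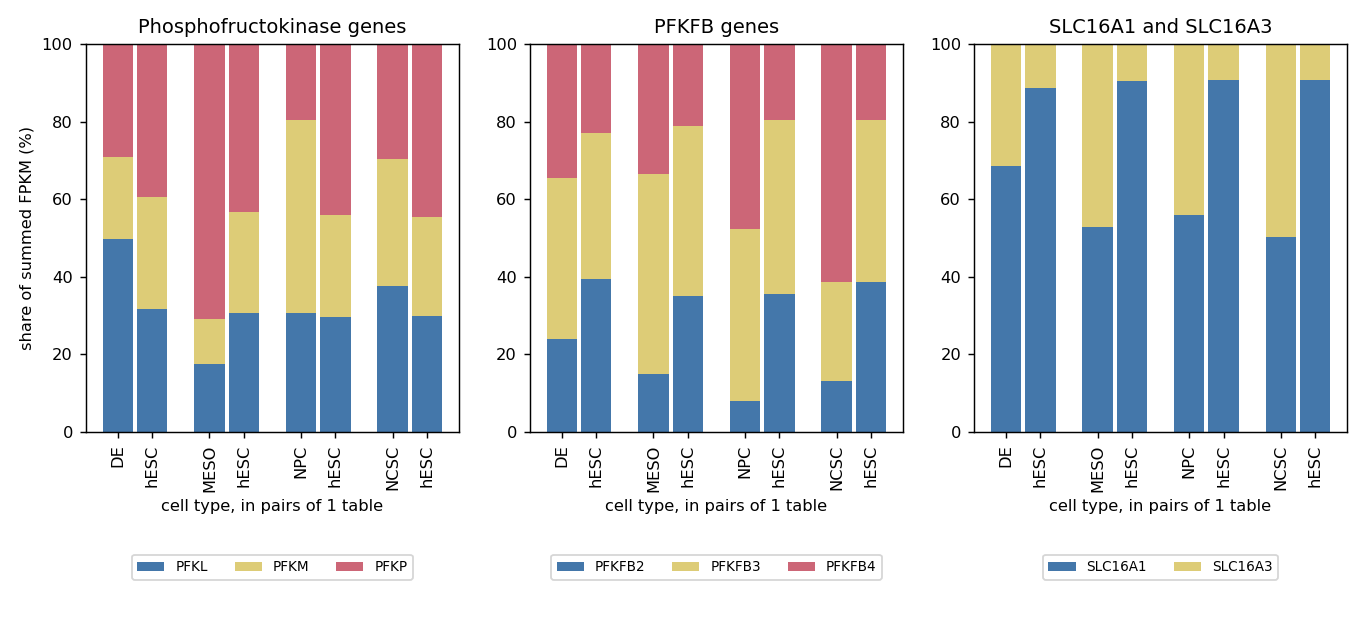
Share of summed FPKM (%) held by each gene among the phosphofructokinase genes, the PFKFB genes and the pair of monocarboxylate carriers, with each derivative beside hESC of the same table. PFKP fills 71.0% of the MESO bar, PFKFB4 61.5% of the NCSC bar, and SLC16A3 at least 31.5% of each derivative's bar against at most 11.4% in hESC.

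Aldolase splits fructose 1,6-bisphosphate. ALDOA, the main form, was at 612 FPKM in DE against 572 in hESC, 560 FPKM in MESO against 577 in hESC, 365 FPKM in NPC against 626 in hESC and 989 FPKM in NCSC against 589 in hESC. It fell in NPC by 0.78 and rose in NCSC (0.75). ALDOC, the form known from brain, was at 14.4 FPKM in MESO against 40.5 in hESC and in NPC at 29.5% of the 44.0 FPKM in hESC. It fell in MESO by 1.43 and in NPC by 1.69. In NCSC it was at 56.3 FPKM against 41.0 in hESC and did not pass. In DE its locus was merged with PIGS, so its 48.0 FPKM against 79.9 FPKM in hESC is the value of both. TPI1, which interconverts the triose phosphates, was at 139 FPKM in NPC against 286 in hESC and fell there by 1.03. It was at 179 FPKM in DE against 238 in hESC, 148 FPKM in MESO against 257 in hESC and 253 FPKM in NCSC against 268 in hESC.

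Of the 6 counted genes of lower glycolysis 2 rose in NCSC, where 10.2% of all tested loci rose, and 0 passed the q-value threshold in DE, MESO or NPC. Of all loci 0.406% rose and 0.0203% fell in DE, 9.05% and 5.36% in MESO, and 11.9% and 24.8% in NPC. With 6 genes, 0 calls does not show that their levels stayed the same. PGK1, which makes the first ATP of this stretch, was at 363 FPKM in NCSC against 188 in hESC (0.94). In the other derivatives it stayed near hESC, at 173 FPKM in DE against 177 in hESC, 151 FPKM in MESO against 175 in hESC and 171 FPKM in NPC against 202 in hESC. ENO3, the muscle enolase, was at 21.5 FPKM in NCSC against 7.53 in hESC (1.40), and elsewhere it was at 6.85 FPKM in DE against 8.96 in hESC, 7.61 FPKM in MESO against 7.76 in hESC and 165% of hESC in NPC. ENO3 remained a small part of enolase, at 1.51% of its sum with ENO1 in NCSC against 0.843% in hESC.

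GAPDH, the dehydrogenase of the pathway's oxidative step, and ENO1 were among the most abundant members. GAPDH was at 1108 FPKM in DE against 1172 in hESC, 1026 FPKM in MESO against 1252 in hESC, 1019 FPKM in NPC against 1385 in hESC and 1718 FPKM in NCSC against 1304 in hESC. ENO1, the common enolase, was at 1406 FPKM in DE against 792 in hESC, 1001 FPKM in MESO against 852 in hESC, 612 FPKM in NPC against 957 in hESC and 1400 FPKM in NCSC against 885 in hESC. None of these differences passed. PGAM1, phosphoglycerate mutase, lay between 55.0 FPKM (NPC) and 86.2 FPKM (NCSC) against 64.3 to 72.8 FPKM in hESC. ENO2, the neuronal enolase, has no value of its own: its locus was merged with LRRC23 in DE and NPC, and with further genes in MESO and NCSC, and the merged values (37.2 to 387 FPKM, against 77.3 to 274 FPKM in hESC) did not pass. For the counts and medians the merged values stand for ALDOC in DE and ENO2 in all 4 tables; the count of calls does not hold any of them.

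PKM and PKLR encode pyruvate kinase, the last step to pyruvate, and both were set apart. PKM was listed at 77.8 FPKM in DE against 597 in hESC with a statistic of 1.26, and at 109 FPKM in MESO against 567 in hESC with a statistic of 0.40, so the signs were opposite. In NPC it was at 486 FPKM against 617 in hESC, with a statistic of -2.42, and in NCSC at 645 FPKM against 581 in hESC, with a statistic of 0.34. PKLR, the liver and red-cell form, was below 5 FPKM in every column. It was listed at 0.0628 FPKM in DE against 1.45 in hESC, 0.0768 FPKM in MESO against 1.37 in hESC, 4.12 FPKM in NPC against 1.48 in hESC and 1.82 FPKM in NCSC against 1.10 in hESC. Its statistics in NPC and NCSC, -2.12 and -2.03, were opposite to those ratios.

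Lactate dehydrogenase is built from the products of LDHA and LDHB. LDHB was below hESC in all 4 derivatives: 720 FPKM in DE against 962 in hESC, 611 FPKM in MESO against 931 in hESC, 531 FPKM in NPC against 1100 in hESC and 884 FPKM in NCSC against 1023 in hESC. It fell in NPC by 1.05. LDHA, set apart, was listed at 10.7 FPKM in DE against 154 in hESC and at 12.7 FPKM in MESO against 136 in hESC, beside statistics of 0.54 and 1.28, so the signs were opposite. In NPC it was at 219 FPKM against 169 in hESC, with a statistic of 1.23. In NCSC it was at 373 FPKM against 150 in hESC, with a statistic of 4.23 and a q-value of 0.000455 in the authors' deposited table. In NPC and NCSC the ratio and statistic had the same sign, but both LDHA values are among those with more than 6 significant digits, which would set the gene apart in these tables too.

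**Figure D4:**
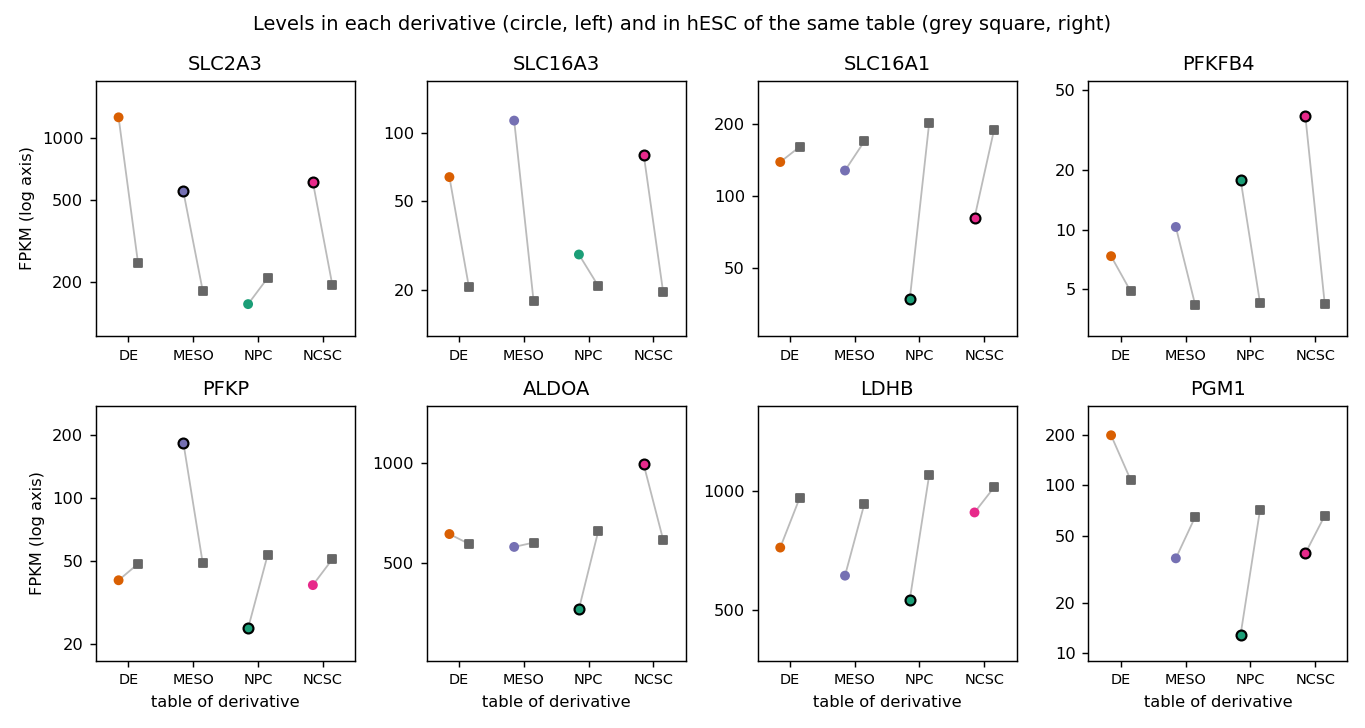
FPKM on a log axis of 8 genes in each derivative (coloured circle, outlined where the deposited q-value was below 0.05) and in hESC of the same table (grey square). Each symbol is 1 value that the authors combined from 2 libraries, so no error bar can be drawn. SLC16A1 and PGM1 are lowest in NPC, PFKFB4 is highest in NCSC, and ALDOA is above hESC in NCSC and below it in NPC.

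Of the 4 counted pentose phosphate genes 0 passed the q-value threshold in any derivative. Of all tested loci 0.406% rose and 0.0203% fell in DE, 9.05% and 5.36% in MESO, 11.9% and 24.8% in NPC, and 10.2% and 19.7% in NCSC. With 4 genes, 0 calls does not show that their levels stayed the same. PGLS hydrolyses the lactone made by the first enzyme, and it was above hESC throughout: 54.0 FPKM in DE against 23.4 in hESC, 48.9 FPKM in MESO against 23.0 in hESC, 34.1 FPKM in NPC against 24.6 in hESC and 31.0 FPKM in NCSC against 23.3 in hESC. Its change was 1.17 in DE and 1.06 in MESO, where the q-value in the authors' deposited table was 0.0949. PGD, the second NADPH-making enzyme, lay between 102 FPKM (MESO) and 169 FPKM (NCSC) against 133 to 162 FPKM in hESC. RPIA and RPE interconvert the pentose phosphates, and both were below hESC in all 4. RPIA was between 9.65 FPKM (NCSC) and 13.8 FPKM (MESO) against 12.9 to 16.2 FPKM in hESC. RPE was between 16.9 FPKM (NPC) and 20.8 FPKM (DE) against at least 27.6 FPKM in hESC.

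TKT and TALDO1, transketolase and transaldolase, link the pathway back to glycolysis and were set apart. TKT was listed at 51.3 FPKM in DE against 539 in hESC, 52.3 FPKM in MESO against 413 in hESC, 621 FPKM in NPC against 442 in hESC and 497 FPKM in NCSC against 416 in hESC. Its statistics were -0.49 in DE, 0.09 in MESO, -3.87 in NPC and 1.32 in NCSC, of opposite sign to the ratio in MESO and NPC. TALDO1 was listed at 20.5 FPKM in DE against 214 in hESC, 29.9 FPKM in MESO against 224 in hESC, 418 FPKM in NPC against 253 in hESC and 227 FPKM in NCSC against 234 in hESC. Its statistics were -0.50 in DE, -1.21 in MESO, -4.08 in NPC and -3.46 in NCSC, of opposite sign to the ratio in NPC.

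PGM1, at chr1:64058486-64125916 (hg19, NCSC table), interconverts glucose 6-phosphate and glucose 1-phosphate. It was at 198 FPKM in DE against 108 in hESC, 36.7 FPKM in MESO against 64.9 in hESC, 12.9 FPKM in NPC against 71.2 in hESC and 39.3 FPKM in NCSC against 65.9 in hESC. It fell in NPC by 2.37 and in NCSC by 0.73, and in DE it was the higher of the pair without passing. UGP2, which makes UDP-glucose, was set apart too. It was listed at 48.2 FPKM in DE against 555 in hESC, 20.5 FPKM in MESO against 446 in hESC, 1223 FPKM in NPC against 550 in hESC and 429 FPKM in NCSC against 507 in hESC. Its statistics were -2.78, -2.93, -8.47 and -8.78 in the same order, all negative, and in NPC opposite to the ratio.

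Other genes of the pathway are given from 8 lists that hold no member; they were chosen with earlier results of these data known. In DE 0 of their genes passed the q-value threshold in any list, where 0.406% of all tested loci rose and 0.0203% fell. For comparison, 9.05% of all tested loci rose and 5.36% fell in MESO. In NPC 11.9% of all loci rose and 24.8% fell, and in NCSC 10.2% rose and 19.7% fell. The median change over all loci with at least 1 FPKM was 0.07 in MESO, -0.27 in NPC and -0.23 in NCSC. Some of the lists lie near these values, and no list was tested against them. Of the pyruvate entry genes, 0 of 14 changed in MESO (median change -0.18), 1 of 14 rose and 8 fell in NPC (-0.86), and 2 rose and 2 fell in NCSC (-0.42). PDHB, a subunit of pyruvate dehydrogenase, fell to 50.8 FPKM in NPC against 142 in hESC and to 67.2 FPKM in NCSC against 132 in hESC. PDK1, the kinase that inhibits that enzyme, rose to 23.9 FPKM in NCSC against 6.21 in hESC and to 11.9 FPKM in NPC against 6.50 in hESC.

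Of other pentose phosphate and nucleotide sugar genes, 2 of 17 rose and 1 fell in MESO (median 0.33), 2 of 16 rose and 7 fell in NPC (-0.80), and 2 of 17 rose and 6 fell in NCSC (-0.46). DERA, deoxyribose-phosphate aldolase, rose to 42.3 FPKM in MESO against 8.14 in hESC, 30.5 FPKM in NPC against 9.60 in hESC and 25.2 FPKM in NCSC against 9.71 in hESC. GFPT2, of the hexosamine branch, fell to 10.1 FPKM in NPC against 43.0 in hESC and to 8.99 FPKM in NCSC against 43.0 in hESC. Of glycogen and gluconeogenesis genes, 0 rose and 1 of 17 fell in MESO (-0.08), 2 of 16 rose and 5 fell in NPC (-0.22), and 1 of 18 rose and 4 fell in NCSC (-0.33). GBE1, the glycogen branching enzyme, was the one that rose in NCSC, to 36.3 FPKM against 5.37 in hESC.

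Of other sugar and monocarboxylate carriers, 2 of 18 rose in MESO (median 0.24), 4 of 16 rose and 4 fell in NPC (-0.49), and 4 of 16 rose and 2 fell in NCSC (0.16). SLC16A10, an aromatic amino acid carrier, fell to 1.04 FPKM in NPC against 7.15 in hESC and to 0.933 FPKM in NCSC against 6.70 in hESC. Of isoforms outside the members 0 rose, and 1 of 11 fell in MESO (-0.40), 4 of 12 in NPC (-0.54) and 2 of 12 in NCSC (-0.53). Of side branches from glycolysis 0 rose, and 1 of 8 fell in MESO (-0.23), 3 of 8 in NPC (-0.56) and 4 of 9 in NCSC (-0.71); PHGDH, which starts serine synthesis, fell to 138 FPKM in NPC against 276 in hESC and to 134 FPKM in NCSC against 258 in hESC.

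HIF targets outside glycolysis gave the highest medians of the 8 lists in MESO, NPC and NCSC. Of these genes 5 of 17 rose and 0 fell in MESO (median 0.86), 9 of 17 rose and 2 fell in NPC (1.16), and 12 of 18 rose and 2 fell in NCSC (1.47); the median in DE was 0.16. NDRG1, a stress-responsive gene, rose to 43.5 FPKM in MESO against 2.52 in hESC and to 81.8 FPKM in NCSC against 2.55 in hESC. P4HA1, a collagen prolyl hydroxylase, rose to 58.9 FPKM in MESO against 20.4 in hESC, 70.0 FPKM in NPC against 22.9 in hESC and 142 FPKM in NCSC against 19.6 in hESC. DDIT4, an inhibitor of mTORC1 signalling, rose to 239 FPKM in NPC against 64.3 in hESC and to 383 FPKM in NCSC against 60.5 in hESC. In MESO DDIT4 rose to 130 FPKM against 58.8 in hESC. ADM, of the same list, fell to 2.85 FPKM in NPC against 16.0 in hESC.

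Among the regulators named for glycolytic genes, 3 of 13 rose and 2 fell in MESO (median -0.26), 3 rose and 6 fell in NPC (-0.52), and 2 rose and 4 fell in NCSC (0.00). HIF1A, a subunit of HIF-1, rose to 161 FPKM in MESO against 73.2 in hESC, and EPAS1, a subunit of HIF-2, to 316 FPKM against 0.964 in hESC. MYC fell to 3.39 FPKM in NCSC against 36.3 in hESC and to 11.3 FPKM in NPC against 38.4 in hESC. MYCN fell to 10.3 FPKM in NPC against 45.3 in hESC and to 24.0 FPKM in NCSC against 42.8 in hESC. TXNIP and ARRDC4, arrestin-like genes that are known to be induced by glucose, rose in NPC and NCSC. TXNIP rose to 186 FPKM in NPC against 21.8 in hESC and to 129 FPKM in NCSC against 20.2 in hESC. ARRDC4 rose to 24.8 FPKM in NPC against 5.61 in hESC and to 37.7 FPKM in NCSC against 5.43 in hESC. In MESO ARRDC4 fell, to 0.943 FPKM against 4.43 in hESC. MLXIPL, of the same list, fell to 0.763 FPKM in NPC against 5.77 in hESC and to 0.377 FPKM in MESO against 5.99 in hESC. Oxygen, glucose and lactate were not measured, and the part of any of these regulators in the members' changes was not tested.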

How the data were processed

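Poly-A RNA was sequenced from 10 libraries of 5 cell types, in duplicate. Cufflinks 2.2.1, Subread 1.5.2, featureCounts, TopHat2 2.0.13 and the build hg19 are listed in the submitters' processing notes, with no role or order; how the tables were scaled is not given in the sources used here. There are 4 deposited tables with 1 FPKM value per cell type and table, so the libraries had been combined before deposit. The test statistic is a signed score computed by the authors. The deposited p-value and q-value come from the authors too, per the headers. A deposited fold change column was not used.

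From these, symbols joined by commas were split, rows on chromosomes 1 to 22 and X were kept, and the row with the highest mean FPKM stood for each symbol. Changes are differences of log2(FPKM + 1). A row counted as untested where its deposited p-value was the highest possible and its statistic was null or missing. The call was the authors' q-value below 0.05, over the whole table. A gene was set apart in all 4 tables where, in any of them, ratio and score had opposite signs, a deposited FPKM had over 6 significant digits, or, at a mean of at least 20 FPKM, the quotient of log2 ratio and score fell short of 0.4 times its median in that table. The last rule was chosen after the data were seen. The planned fit across libraries (limma) could not be run on 1 value per cell type. No error could be computed, and p-values measure at most the spread between 2 libraries, which may be technical. The members and lists were chosen with earlier results of these data known. All members are named. Of each other list, genes could be named if among the 4 with the largest change in a table. They also had to be past the q-value threshold and at 5 FPKM or more in either cell type. Not all of these are printed. For a gene so named, called changes in other derivatives could be given as well. Scripts used Python 3.11.15 and pandas 2.3.3 and were tested on simulated data. Promoter letters were read from a RefSeq table on GRCh38.p14, in which 31 members had an entry and 18 a single start; they were not joined to the tables' hg19 coordinates. Alternatives were other pseudocounts, centring, FPKM filters, call rules, hESC values of the other tables and the handling of discordant, repeated and merged rows.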

Additional observations from a re-analysis of the deposited data

Results flagged for a closer look

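PFKP and ALDOA passed the authors' q-value threshold in opposite directions in different derivatives. PFKP changed by 1.90 on the log2(FPKM + 1) scale in MESO and by -1.12 in NPC. ALDOA changed by 0.75 in NCSC and by -0.78 in NPC. With a normal p-value from the deposited statistic neither gene was called in any derivative. The PFKP span is shared with PITRM1 in MESO and NPC. The difference between derivatives was not tested in either gene, since the tables hold 1 value per cell type, and the comparisons share the hESC libraries.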

How the results depend on the processing

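Leaving out a library could not be run because the tables hold 1 value per cell type. No paired analysis was possible because the deposited columns carry no replicates. The depth is unknown, so no interval for low genes such as PKLR can be given. All 24 called changes kept their sign with hESC values of the other 3 tables, which come from the same hESC libraries. A pseudocount cannot turn the sign of such a difference, so those of 0.1 and 5 are no check of direction. An FPKM filter or centring moved no count by over 1.5 times. Where a value moved, the cause was not tested, except that a stricter rule can only remove calls and keeping the 9 genes set apart adds genes.

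With a normal p-value from the deposited score, 1 gene rose in DE, and 0 rose and 0 fell in MESO. By that rule 1 rose and 6 fell in NPC, and 4 rose and 1 fell in NCSC. With the authors' q-value and a change of at least 1 together, 2 rose and 1 fell in MESO. By that rule 1 rose and 7 fell in NPC, and 4 rose and 1 fell in NCSC. The share of all loci called by either rule is not given, so these counts have no background beside them. With all 34 genes and the direction of the score, 2 fell in MESO, 14 in NPC and 5 in NCSC. With only rows of opposite sign left out (added after seeing the data), 2 fell in MESO, 11 in NPC and 5 in NCSC. With the first row per symbol, 7 fell in NPC and 1 in NCSC, SLC16A1 being lost in both.

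Medians in DE, MESO, NPC and NCSC, in that order, were -0.13, -0.16, -0.17 and 0.68 after centring on all loci; -0.05, -0.10, -0.36 and 0.38 with hESC values of the other tables; -0.30, -0.39, -0.27 and 0.40 with all 34 genes; -0.25, -0.32, -0.37 and 0.40 with only rows of opposite sign left out; and -0.04, -0.06, -0.45 and 0.42 without merged rows. The last 2 settings were added after seeing the data. With the first row per symbol they were -0.04 in DE and -0.04 in MESO. A pseudocount of 5 gave -0.43 in NPC and 0.41 in NCSC, and one of 0.1 gave 0.46 in NCSC.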
